A study of Mus musculus with 3 samples.

Results

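Mitochondrial ribosomal proteins were taken as all genes whose symbol is Mrpl or Mrps followed by a number and at most 1 further letter, which gave 78 of the 55471 features in the table, 49 named for the large subunit (Mrpl) and 29 for the small subunit (Mrps). No symbol was repeated. The mitochondrial ribosome is encoded by both genomes: its ribosomal RNAs are transcribed inside the organelle, whereas all its proteins come from nuclear genes scattered over many chromosomes and are imported. It translates only the few proteins encoded in mitochondrial DNA, all subunits of the oxidative phosphorylation complexes, and it sits at the inner membrane into which they are inserted. Some of its proteins descend from bacterial ribosomal proteins, and others were added in the mitochondrial lineage.

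The RNA came from cultured cells of JC, a mouse mammary carcinoma line, in 3 populations with 1 library each. JC-M3 was obtained from lung metastases, freed with collagenase, over 3 rounds of tail vein injection, with isolation at day 28. JC-P came from tumours of the mammary fat pad taken at day 14, although its treatment label reads metastasis, like that of JC-M3. JC-WT carries the label WT for treatment, all 3 populations carry it for genotype, and no allele, transgene or drug is named for any of them. There were no replicates, so each ratio compares a pair of libraries, no p-value was computed, and the intervals given are 95% counting intervals that leave out variation between cultures. In such bulk RNA, fewer cells of a type and less RNA per cell cannot be told apart.

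Whole reads could be recovered from the deposited values, and 23386413 in JC-M3, 22132593 in JC-P and 18093426 in JC-WT were assigned to genes. The label of epithelial-like cells was met only in part by its markers. Krt8 stood at 681, 1873 and 1503 TPM (a level scaled by gene length and library size) in JC-M3, JC-P and JC-WT, while Epcam had 0 reads in each, Cdh1 had 21, 25 and 0 reads and the mesenchymal marker Vim stood at 2384, 2674 and 2528 TPM. Of the 4 leukocyte markers, Ptprc, Adgre1 and Cd3e had 0 reads in all 3 libraries, and the 4 together summed to 7.65, 6.78 and 11.9 TPM. The 4 endothelial markers summed to 0.338, 18.1 and 0.278 TPM, nearly all of it Cdh5 in JC-P, with Kdr at 0 throughout, and the 3 fibroblast markers to 51.4, 108 and 39.3 TPM. Of these 3, Col3a1 (8.76, 46.0 and 3.99 TPM) and Pdgfra (20.1, 47.6 and 34.05 TPM) were highest in JC-P. Dcn was highest in JC-M3 (22.5, 14.05 and 1.245 TPM). The part of these other markers in the results below was not tested.

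Of the 78 genes, 77 averaged 1 TPM or more across the libraries, the minimum for a ratio, with between 103 and 3906 reads per gene and library (median 659). Mrpl53 alone was listed at 0 in every library. Of its exon bases, 88.0% also belong to the genes Gm42688 and Ccdc142os on the same strand, and reads in such overlaps cannot be assigned to 1 gene, so its level is not known from these values. The 77 others were all present in each population.

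Levels differed widely for proteins that mostly enter the ribosome as single copies. On the TPM scale, which is per length, the highest mean was 112-fold above the lowest, although 70 of the 77 genes lay within 4-fold of the median of 50.7 TPM. Mrps6, which belongs to the platform of the small subunit, stood at 242 TPM in JC-M3, 317 in JC-P and 475 in JC-WT, the highest of all 77 genes in JC-P and JC-WT. Mrpl12, which forms the flexible stalk of the large subunit and is present there in several copies, stood at 280 TPM in JC-M3, 262 in JC-P and 412 in JC-WT, the highest in JC-M3. Both were highest in JC-WT, and together they made up 13.2% of the summed level of the 77 genes. Mrpl10, the protein that anchors Mrpl12, followed at 146, 148 and 169 TPM in JC-M3, JC-P and JC-WT, then Mrps7, a homologue of the bacterial small-subunit protein S7, at 163, 115 and 180 TPM. Mrpl28 closed the 5 highest by mean, at 152, 120 and 175 TPM.

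At the low end stood Mrpl48 at 2.99, 2.89 and 3.38 TPM, Mrpl23 at 3.94, 4.67 and 4.20 TPM, Mrps35 at 5.67, 6.52 and 7.19 TPM and Mrps10 at 9.24, 9.91 and 10.95 TPM in JC-M3, JC-P and JC-WT. Mrps5 was next, at 10.5, 10.7 and 14.7 TPM. Of these 5, Mrpl23 alone was not at its highest in JC-WT. TPM divides by the summed exon length of a gene model, so a gene with long annotated exons has a lower level for the same reads.

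Summed over the 78 genes, the level was 4844 TPM in JC-M3, 4595 in JC-P and 5582 in JC-WT, or 0.484%, 0.459% and 0.558% of all TPM. The sum was highest in JC-WT for both subunits, with 3268, 3093 and 3686 TPM for the large subunit genes and 1577, 1502 and 1896 TPM for the small subunit genes in JC-M3, JC-P and JC-WT. Without Mrps6 and Mrpl12 the same sums were 4323, 4016 and 4695 TPM, with JC-P again the lowest and JC-WT again the highest.

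**Figure D1:**
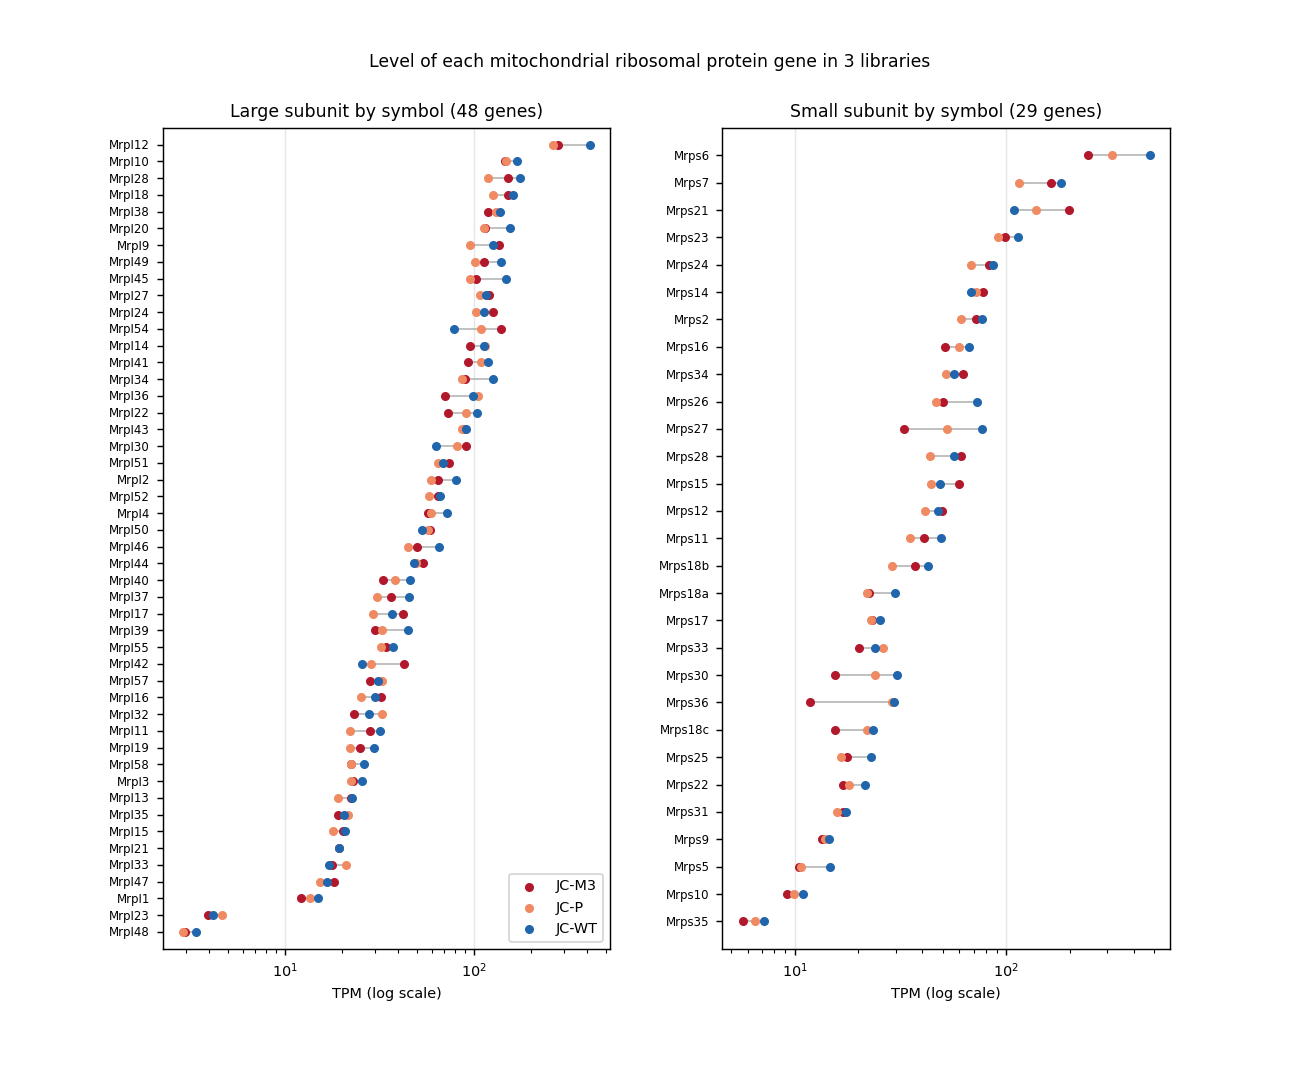
Level of each of the 77 measured mitochondrial ribosomal protein genes in TPM on a log axis, with 1 point per library (JC-M3, JC-P, JC-WT), large subunit genes and small subunit genes in separate panels. Most genes lie near the median of 50.7 TPM with their 3 points close together, Mrps6 and Mrpl12 stand highest, and the points of Mrps36 and Mrps27 are spread, with JC-M3 lowest.

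JC-P over JC-WT sets cells from fat pad tumours against the cells labelled WT. The mitochondrial ribosomal protein genes were lower in JC-P, by a small amount that most of them shared. The median log2 ratio was -0.20, against 0.01 over all 14527 features tested, and 61 of 77 genes lay below 0, where 49% of all features did. Of the 8628 protein-coding features that averaged 10 TPM or more, called well-expressed genes below, 55.2% lay below 0, with a median of -0.04. The counting interval lay wholly below 0 for 42 of the 77 genes (28.1% of all features) and wholly above it for 5 (27.2%). Among the 8628 well-expressed genes, which have more reads, it lay wholly below 0 for 3417 and wholly above it for 2628. Large single differences were few. At least 1.5-fold lower were 4 genes, or 5.19% of the 77 against 6.9% of all features and 4.13% of the well-expressed genes. At least 1.5-fold higher was none, against 12% and 4.88%. The share past 1.5-fold lower was thus near the background.

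The 4 genes were Mrpl12, Mrps7, Mrps26 and Mrpl45. Mrpl12 stood at 262 TPM in JC-P, against 412 TPM in JC-WT, a log2 ratio of -0.65 (interval -0.73 to -0.58). Mrps7 stood at 115 TPM in JC-P, against 180 TPM in JC-WT, a log2 ratio of -0.65 (-0.74 to -0.55). Both were thus lower in JC-P by more than the counting error allows. Mrps26, a small-subunit protein added in the mitochondrial lineage, stood at 46.4 TPM in JC-P, against 72.4 TPM in JC-WT (log2 ratio -0.64). Mrpl45, which in mammals ties the ribosome to the inner membrane beside the exit of the nascent chain, stood at 95.5 TPM in JC-P, against 148 TPM in JC-WT (-0.63). Mrps6 and Mrps27 followed at log2 ratios of -0.58 and -0.55.

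At the other end, the highest ratios in JC-P were those of Mrpl54 at 0.47, Mrpl30 at 0.37, Mrps21 at 0.35, Mrpl33 at 0.29, Mrpl32 at 0.23 and Mrpl42 at 0.16. Mrpl54 stood at 110 TPM in JC-P, against 79.0 TPM in JC-WT, and its interval was 0.28 to 0.67. Mrpl30 and Mrpl33, homologues of bacterial L30 and L33, stood at 81.9 and 21.1 TPM in JC-P and at 63.4 and 17.2 TPM in JC-WT. All 6 were higher in JC-P by less than 1.5-fold.

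JC-M3 over JC-P sets lung-selected cells against fat pad tumour cells. Here the genes were slightly higher in JC-M3, with a median log2 ratio of 0.09 against -0.01 over all features, and 48 of 77 lay above 0, against 49.2% of all features and 51.2% of the well-expressed genes. The median was 0.05 without the members that share sequence with other genes, and also 0.05 with chromosome medians subtracted. The interval was wholly above 0 for 31 genes (29.5% of all features) and wholly below it for 17 (30.1%). Among the 8628 well-expressed genes it was wholly above 0 for 3292 and wholly below it for 3119. The members' share above 0 was thus near that of the well-expressed genes. None was at least 1.5-fold higher in JC-M3, against 10% of all features and 6.34% of the well-expressed genes. At least 1.5-fold lower were 3, or 3.90% against 13.3% and 8.83%. These 3, Mrps36, Mrps27 and Mrps30, are all on chromosome 13.

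Mrps36, named as a small-subunit protein but reported as part of the 2-oxoglutarate dehydrogenase complex, stood at 11.8 TPM in JC-M3, 28.7 in JC-P and 29.4 in JC-WT. JC-M3 alone was low. The log2 ratio of JC-M3 over JC-P was -1.25 (-1.63 to -0.94, from 103 and 240 reads), the only 1 of the 77 past 2-fold in that comparison, where 5.38% of all features were at least 2-fold lower. Mrps27, a small-subunit protein with pentatricopeptide repeats that binds mitochondrial RNA, stood at 32.8 TPM in JC-M3, 52.3 in JC-P and 77.0 in JC-WT, with a log2 ratio of JC-M3 over JC-P of -0.66 (-0.84 to -0.50). It was thus lower in JC-M3 than in JC-P and lower in JC-P than in JC-WT. Mrps30, named for the small subunit but found in the large one in mammalian structures, stood at 15.5, 23.9 and 30.5 TPM in JC-M3, JC-P and JC-WT, in the same order as Mrps27, with a log2 ratio of JC-M3 over JC-P of -0.61.

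The next lowest ratios of JC-M3 over JC-P were those of Mrpl36 at -0.58, Mrps18c at -0.49 and Mrpl32 at -0.49. Mrpl36 and Mrpl32, homologues of bacterial L36 and L32, are also on chromosome 13. The 6 highest were Mrpl42 at 0.58, Mrpl17 at 0.53, Mrps21 at 0.51, Mrpl9 at 0.51, Mrps7 at 0.50 and Mrps28 at 0.49. Mrpl9, Mrps21 and Mrps28 are on chromosome 3. Mrps7, among the lowest of JC-P over JC-WT, stood at 163 TPM in JC-M3, close to its 180 TPM in JC-WT, so that JC-P was the low library.

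JC-M3 over JC-WT sets the lung-selected cells against those labelled WT, and shares a library with each comparison above. The median log2 ratio was -0.20, against 0.00 over all features and -0.03 over the well-expressed genes. Below 0 lay 58 of 77 genes, against 49.7% of all features and 53.4% of the well-expressed genes. The interval was wholly below 0 for 41 (30.5% of all features) and wholly above it for 10 (29.6%). Among the 8628 well-expressed genes it was wholly below 0 for 3431 and wholly above it for 2970. Past 1.5-fold were 3 genes higher in JC-M3 (14% of all features, 7.93% of the well-expressed genes) and 4 lower (12.5% and 9.72%), and past 2-fold only Mrps36 and Mrps27, both lower (5.27%).

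The 4 lower genes were Mrps36 at a log2 ratio of -1.28 (-1.68 to -0.97), Mrps27 at -1.22 (-1.40 to -1.07), Mrps6 at -0.97 (-1.04 to -0.90) and Mrps30 at -0.95 (-1.11 to -0.83). All 4 carry small-subunit symbols, but Mrps30 lies in the large subunit in mammalian structures and Mrps36 is reported in another complex. Mrps36, Mrps27 and Mrps30 are on chromosome 13. After the 4 lower genes came Mrps18c at -0.58 and Mrpl39 at -0.58. Mrps18c is 1 of the 3 mammalian relatives of bacterial S18, and it stood at 15.4 TPM in JC-M3, 21.9 in JC-P and 23.4 in JC-WT, low in JC-M3 alone. The other 2 relatives had another pattern: Mrps18a stood at 22.4, 21.9 and 29.9 TPM and Mrps18b at 37.0, 28.9 and 42.5 TPM, both lowest in JC-P. Shared sequence limits this comparison, since 22.9% of the 50-base windows of Mrps18c and 30.2% of those of Mrps18b also occur in other genes.

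The 3 higher genes were Mrps21, Mrpl54 and Mrpl42. Mrps21, the homologue of bacterial S21, stood at 197 TPM in JC-M3, 138 in JC-P and 108 in JC-WT, a log2 ratio of JC-M3 over JC-WT of 0.86 (0.70 to 1.03). Mrpl54 stood at 140 TPM in JC-M3, 110 in JC-P and 79.0 in JC-WT, a log2 ratio of 0.82 (0.64 to 1.01). Mrpl42 stood at 42.8 TPM in JC-M3, 28.6 in JC-P and 25.6 in JC-WT, a log2 ratio of 0.73 (0.59 to 0.90). In all 3 genes JC-M3 was highest and JC-WT lowest. Mrpl30 at 0.52, Mrps15 at 0.31 and Mrpl17 at 0.21 followed.

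**Figure D2:**
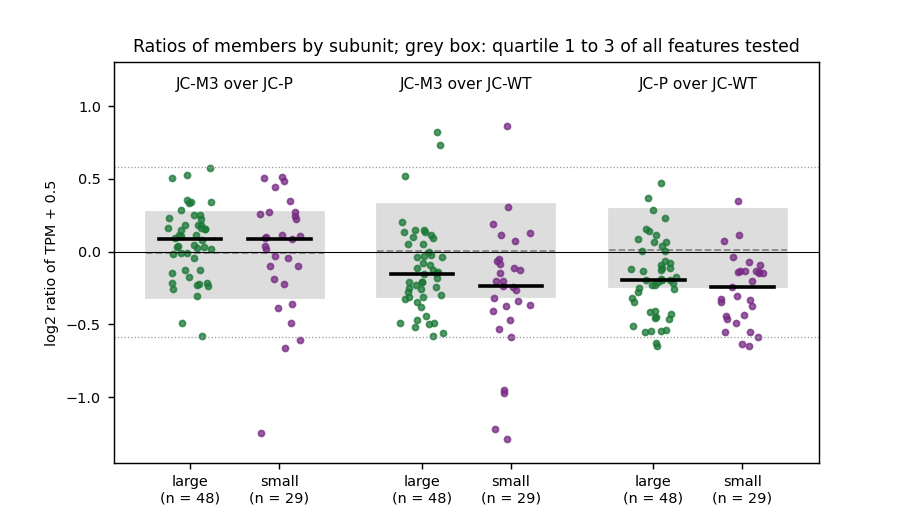
Log2 ratio of TPM + 0.5 of each of the 77 genes in the 3 comparisons, large subunit and small subunit genes side by side, with a grey box from quartile 1 to quartile 3 of all 14527 features tested, black bars at the members' medians and dotted lines at 1.5-fold. The genes lie mostly below 0 in JC-P over JC-WT and in JC-M3 over JC-WT (medians -0.20 in each) and slightly above it in JC-M3 over JC-P (0.09), with Mrps36 the lowest point in both comparisons of JC-M3.

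By library, JC-P was the lowest of the 3 for 41 of the 77 genes, where it was the lowest for 29.8% of all features. JC-M3 was the lowest for 28 (36% of all features) and JC-WT for 8 (34.2%), and JC-WT was the highest for 50 (33.2% of all features). A stepwise order, JC-M3 below JC-P below JC-WT, was seen in 20 genes, or 26.0% against 19.2% of all features, Mrps6, Mrps27, Mrps30 and Mrps36 among them. The opposite order was seen in 7, Mrpl30, Mrpl42, Mrpl44, Mrpl50, Mrpl54, Mrps14 and Mrps21, or 9.09% against 19.4% of all features. Both orders count any difference in TPM, including steps within counting error. Mrpl10, among the 20, had a log2 ratio of JC-M3 over JC-P of -0.01 (interval -0.11 to 0.09). Mrps36 and Mrps18c, described above as low in JC-M3 alone, are also among the 20.

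The subunits differed little. The median log2 ratios of the 48 large and 29 small subunit genes were -0.19 and -0.25 when JC-P was set over JC-WT, 0.09 and 0.09 with JC-M3 over JC-P, and -0.15 and -0.23 with JC-M3 over JC-WT. Moving Mrps18a and Mrps30 to the large subunit, where the mammalian structure has them, and leaving Mrps36 out gave -0.20 and -0.22, 0.06 and 0.10, and -0.17 and -0.20.

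Within the large subunit, all 3 genes of the stalk and its base lay below 0 in JC-P over JC-WT, Mrpl12 at -0.65, Mrpl11 at -0.51 and Mrpl10 at -0.20. Of the 7 genes of the central protuberance, the crest of the large subunit, all 7 lay below 0 in JC-P over JC-WT, between -0.08 for Mrpl38 and -0.55 for Mrpl46, with Mrpl18 at -0.34, Mrpl40 at -0.26, Mrpl55 at -0.21, Mrpl48 at -0.19 and Mrpl27 at -0.11. Of the 7 genes at the exit tunnel and its membrane side, 5 did, with Mrpl45 at -0.63, Mrpl39 at -0.45, Mrpl22 at -0.19, Mrpl24 at -0.13 and Mrpl47 at -0.11, while Mrpl44 was at 0.04 and Mrpl23 at 0.14. On the small subunit, all 5 genes of mRNA entry and decoding lay below 0, Mrps5 at -0.44, Mrps24 at -0.33, Mrps2 at -0.33, Mrps12 at -0.20 and Mrps35 at -0.13. In JC-P over JC-WT, 79.2% of the 77 genes lay below 0, against 49% of all features and 55.2% of the well-expressed genes. None of these 22 genes of the structural groups apart from Mrpl12 and Mrpl45 was past 1.5-fold.

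In JC-M3 over JC-WT the same groups had medians of -0.21 for the stalk and its base, -0.16 for the central protuberance, -0.08 for the exit tunnel and -0.08 for mRNA entry and decoding. The widest spread was at the exit tunnel, with Mrpl39 at -0.58, Mrpl45 at -0.52 and Mrpl22 at -0.50 beside Mrpl24 at 0.15, Mrpl44 at 0.15 and Mrpl47 at 0.14. Each of these last 3 is on chromosome 1 or 3.

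The 77 genes lie on 17 chromosomes, and their ratios differed between chromosomes. On chromosome 13 all 5 genes were lower in JC-M3, with a median log2 ratio of -0.95 over JC-WT and -0.61 over JC-P, while the median of the 437 protein-coding genes tested on that chromosome was -0.44 and -0.52. In JC-P over JC-WT the same 5 genes had a median of -0.04 and the chromosome 0.03. On chromosome 10 both genes, Mrpl42 and Mrpl54, were higher in JC-M3 than in JC-WT, with a median of 0.78, and the chromosome's median was 0.41. On chromosome 3 all 5 were above 0 in JC-M3 over JC-P, with a median of 0.49 beside 0.25 for the chromosome, and on chromosome 2 all 4 were below 0 in JC-M3 over JC-WT, with -0.41 beside -0.31. In other cases the members' median was away from 0 where the chromosome's was near it, or lay on the other side of 0. In JC-M3 over JC-WT the 3 members on chromosome 16 had a median of -0.58 beside -0.02 for the chromosome, and the 4 on chromosome 4 had -0.09 beside 0.08. On chromosome 2 the members had 0.04 beside -0.23 in JC-M3 over JC-P, and on chromosome 17 the 8 members had -0.39 beside -0.05 in JC-P over JC-WT.

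Across the 17 chromosomes, the median of the members and that of all protein-coding genes had a Pearson r of 0.83 when JC-P was set over JC-WT, 0.86 with JC-M3 over JC-P and 0.84 with JC-M3 over JC-WT (Spearman 0.70, 0.84 and 0.73). Gene by gene, r between a member's ratio and its chromosome's median was 0.48, 0.71 and 0.69 over 77 genes, against 0.23, 0.32 and 0.34 over 8554 other well-expressed genes. The points share libraries and depth, the chromosome medians include the members, and the 2 sets of genes differ in expression. Whether a chromosome's shift accounts for the ratio of any member was not tested.

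**Figure D3:**
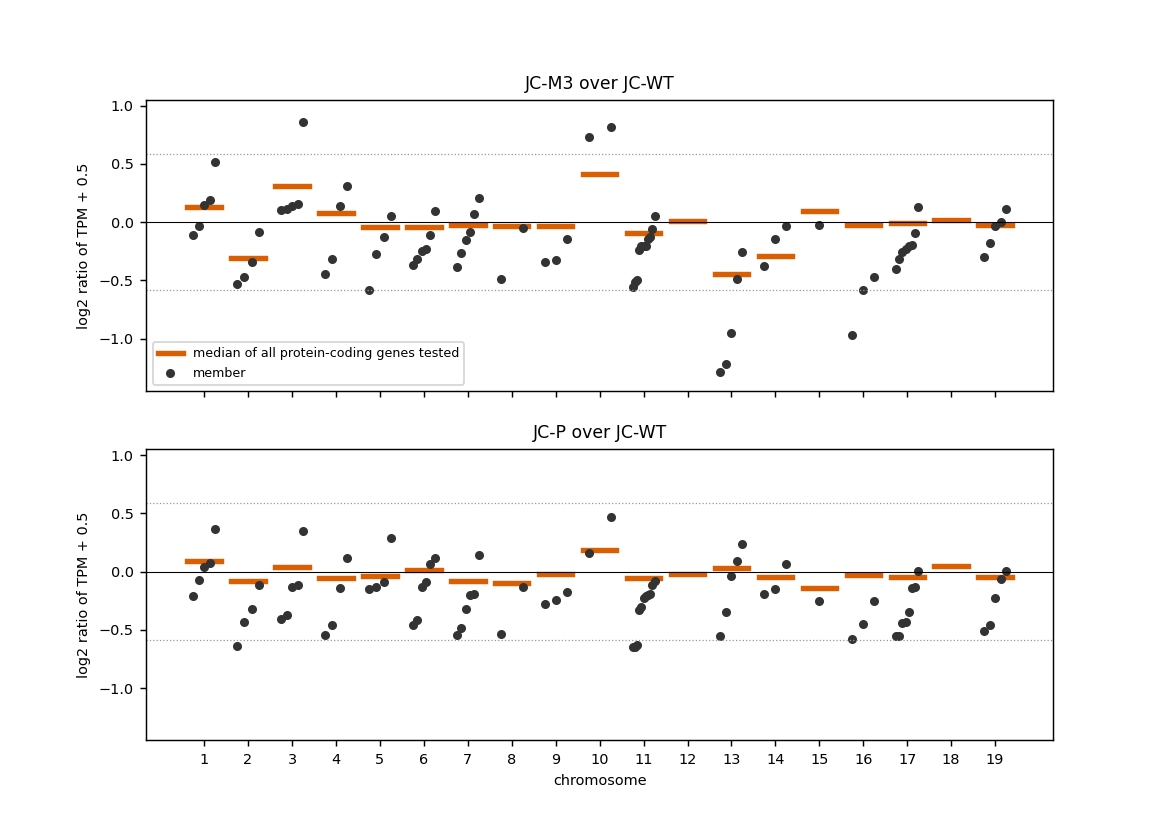
Log2 ratio of each of the 77 genes by chromosome, with a bar at the median of all protein-coding genes tested on that chromosome, for JC-M3 over JC-WT (top) and JC-P over JC-WT (bottom), with dotted lines at 1.5-fold. In JC-M3 over JC-WT the 5 genes of chromosome 13 lie below 0, beside a chromosome median of -0.44, and the pair on chromosome 10 lies above 0 in both panels.

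On chromosome 13 (GRCm38), Mrps27 spans 99344786 to 99415562 on the plus strand, Mrps36 spans 100735955 to 100744659 on the minus strand and Mrps30 spans 118378381 to 118387252 on the minus strand. Genes around them were lower in JC-M3 too. From 20 Mb before the start of Mrps27 to the chromosome's end, the 123 other protein-coding genes had a median log2 ratio of -0.71 in JC-M3 over JC-WT, where 112 of them lay below 0, and of 0.03 in JC-P over JC-WT. Before that point the medians of JC-M3 over JC-WT were -0.33 over 185 genes and -0.38 over 124 genes, where Mrpl36 and Mrpl32 stand with their smaller ratios of -0.49 and -0.26. Within 5 Mb, the median was -0.83 around Mrps27 (55 genes), -0.82 around Mrps36 (52 genes) and -0.71 around Mrps30 (17 genes), beside the genes' own -1.22, -1.28 and -0.95. Ptcd2, which starts 81 bases from Mrps27 in the opposite direction, stood at 25.5 TPM in JC-M3, 51.0 in JC-P and 53.0 in JC-WT. It was low in JC-M3 alone, whereas Mrps27 was also lower in JC-P than in JC-WT.

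**Figure D4:**
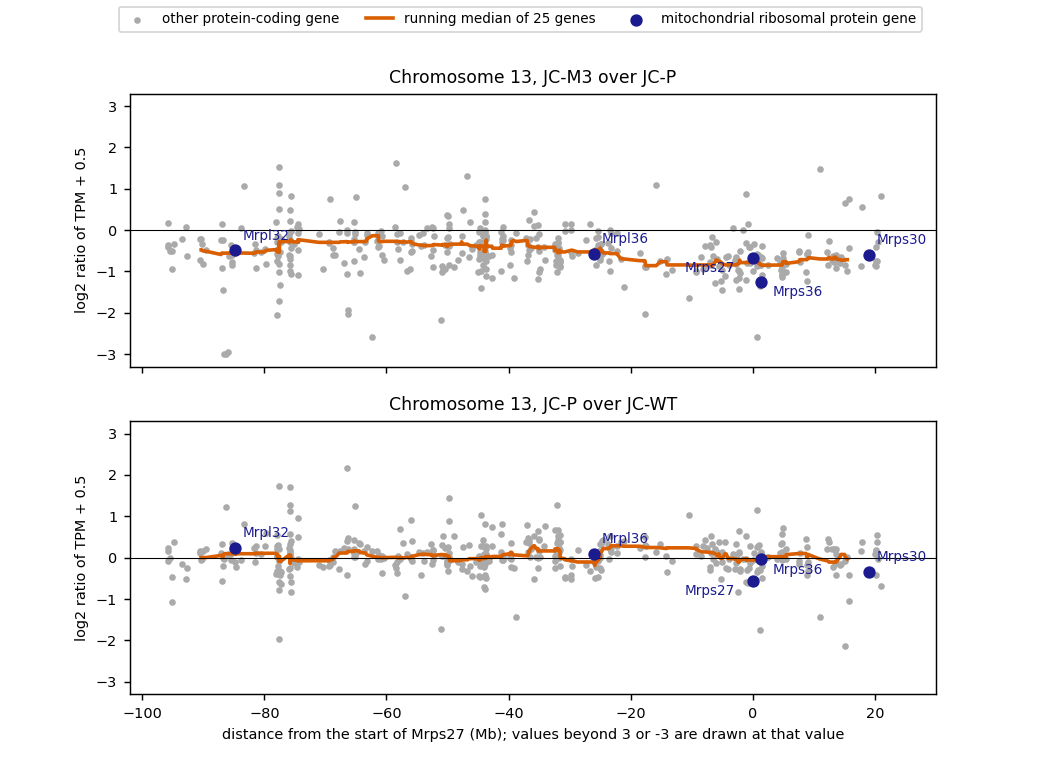
Log2 ratio of protein-coding genes along chromosome 13 against their distance in Mb from the start of Mrps27, for JC-M3 over JC-P (top) and JC-P over JC-WT (bottom), with the 5 mitochondrial ribosomal protein genes in blue and a running median of 25 genes as a line. In JC-M3 over JC-P the line lies below 0 throughout and is low over a broad stretch that holds Mrps27, Mrps36 and Mrps30, while in JC-P over JC-WT it stays near 0.

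Subtracting the median of the protein-coding genes within 5 Mb narrowed the spread of JC-M3 over JC-WT among the 77 genes, to an SD of 0.25 on the log2 scale after it, against 0.37 as measured. The SD was 0.22 against 0.31 in JC-M3 over JC-P and 0.24 against 0.26 in JC-P over JC-WT. The median of JC-M3 over JC-WT was then -0.08. The step was added after the data had been seen. Past 1.5-fold after it were 4 genes in JC-M3 over JC-WT, with Mrps21 higher and Mrps6, Mrps18c and Mrpl39 lower, and none in the other 2 comparisons. Of 8625 well-expressed genes treated the same way, 6.05% were past 1.5-fold higher and 6.91% lower in JC-M3 over JC-WT. In either direction 11.5% were past it in JC-M3 over JC-P and 7.87% in JC-P over JC-WT. Mrps6, on chromosome 16 from 92058270 to 92112227 (plus strand), had a log2 ratio of -0.97 while the 47 genes around it had a median of -0.20, a difference of -0.77. Slc5a3, a myo-inositol transporter gene that overlaps Mrps6 on the same strand, stood at 68.0 TPM in JC-M3, 90.5 in JC-P and 114 in JC-WT, in the same order, and 19.9% of the exon bases of Mrps6 overlap other genes. The same difference was -0.62 for Mrps18c and -0.59 for Mrpl39, whose neighbours had medians of 0.04 and 0.01. Mrps21, on chromosome 3 from 95862634 to 95871519 (minus strand), stood 0.61 above the 80 genes around it. For Mrps36 and Mrps27, whose neighbours were themselves low, the difference was -0.47 and -0.39, both less than 1.5-fold.

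**Figure D5:**
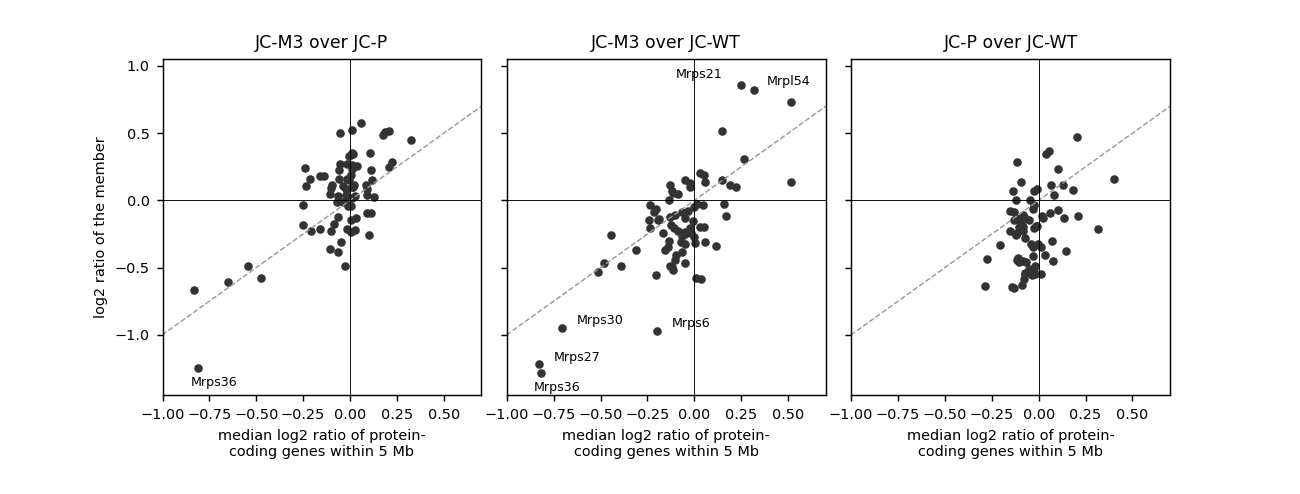
Log2 ratio of each of the 77 genes against the median log2 ratio of the protein-coding genes within 5 Mb of it, in 1 panel per comparison, with the dashed line at equality. In JC-M3 over JC-WT, Mrps36, Mrps27 and Mrps30 lie at the lower left, near neighbours with medians of -0.82, -0.83 and -0.71, while Mrps6 lies well below the line and Mrps21 well above it.

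The promoter sequences of some of the members that stood out are shown so that genes low and high in JC-M3 can be compared at their start sites. They are RefSeq windows of 300 bases in GRCm38.p6, from 250 before to 50 after the start, read 5′ to 3′ on the gene's strand, with capitals for a match to any of 5 short motifs searched on both strands. The first set holds the low genes Mrps27 (chr13:99344536-99344835, plus strand), Mrps36 (chr13:100744610-100744909, minus strand) and Mrps6 (chr16:92058086-92058385, plus strand).
Mrps27: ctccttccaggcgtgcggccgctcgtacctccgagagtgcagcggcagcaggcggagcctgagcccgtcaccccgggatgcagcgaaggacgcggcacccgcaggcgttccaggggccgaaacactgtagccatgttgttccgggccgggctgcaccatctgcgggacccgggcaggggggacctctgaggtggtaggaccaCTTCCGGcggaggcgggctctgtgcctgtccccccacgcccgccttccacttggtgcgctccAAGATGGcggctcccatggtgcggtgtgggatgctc
Mrps36: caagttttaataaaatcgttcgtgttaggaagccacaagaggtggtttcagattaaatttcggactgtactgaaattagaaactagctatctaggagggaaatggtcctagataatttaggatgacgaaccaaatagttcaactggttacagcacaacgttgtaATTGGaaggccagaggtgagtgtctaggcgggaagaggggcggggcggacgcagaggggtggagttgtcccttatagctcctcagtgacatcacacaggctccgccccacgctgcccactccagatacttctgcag
Mrps6: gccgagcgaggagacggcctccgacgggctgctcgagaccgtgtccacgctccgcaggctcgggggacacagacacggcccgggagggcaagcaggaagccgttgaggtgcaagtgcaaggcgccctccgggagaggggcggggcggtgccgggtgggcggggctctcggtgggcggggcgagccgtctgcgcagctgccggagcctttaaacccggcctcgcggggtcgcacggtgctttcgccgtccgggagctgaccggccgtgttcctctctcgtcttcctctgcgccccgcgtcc

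The window of Mrps27 held an ETS core and a YY1 core, that of Mrps36 a CCAAT box, and that of Mrps6 none of the 5. Mrps30, also low in JC-M3, and Mrpl54, also high, are not shown, and RefSeq held no window for Mrpl54. The high genes Mrps21 (chr3:95871465-95871764, minus strand) and Mrpl42 (chr10:95501900-95502199, minus strand) are shown for contrast.
Mrps21: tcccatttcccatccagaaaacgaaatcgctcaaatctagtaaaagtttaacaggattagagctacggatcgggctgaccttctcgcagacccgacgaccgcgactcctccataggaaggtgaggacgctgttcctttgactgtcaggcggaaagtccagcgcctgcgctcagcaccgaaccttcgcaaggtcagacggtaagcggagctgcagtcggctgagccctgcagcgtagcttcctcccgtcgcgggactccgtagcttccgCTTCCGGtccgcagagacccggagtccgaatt
Mrpl42: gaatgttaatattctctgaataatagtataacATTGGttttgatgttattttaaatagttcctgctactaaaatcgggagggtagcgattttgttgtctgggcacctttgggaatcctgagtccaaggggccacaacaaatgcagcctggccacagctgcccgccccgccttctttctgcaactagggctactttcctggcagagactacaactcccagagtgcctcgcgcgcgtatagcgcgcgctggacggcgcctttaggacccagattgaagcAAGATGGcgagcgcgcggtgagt

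Mrps21 held an ETS core, and Mrpl42 a YY1 core and a CCAAT box. Among the windows shown so far, the ETS core, the YY1 core and the CCAAT box were thus each found in a low and in a high gene. The motifs were the NRF1 core GCATGCG, the ETS core CCGGAAG, the YY1 core AAGATGG, the E-box CACGTG and the CCAAT box CCAAT, each also sought as its reverse complement, and none of the 5 contains another. RefSeq held 75 windows for 69 of the 78 genes, among 32851 windows in all. The ETS core was found in 34.7% of the members' windows against 8.86% of all, the YY1 core in 17.3% against 6.34%, the NRF1 core in 10.7% against 3.58%, the E-box in 9.33% against 7.15% and the CCAAT box in 40.0% against 37.4%. The members' windows were also richer in G and C, with a median of 58.7% against 52.7%, and 17 of the 69 genes held none of the 5. In JC-M3 over JC-WT, measured members with and without the ETS core had median log2 ratios of -0.155 and -0.209 (25 and 43 genes). The medians were -0.257 and -0.2 for the YY1 core (13 and 55) and -0.246 and -0.151 for the CCAAT box (26 and 42). They were -0.204 and -0.191 for the NRF1 core (8 and 60) and -0.441 and -0.155 for the E-box (5 and 63). Whether a motif goes with a ratio was not tested. A match is a description of letters, not a bound site.

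Many of the genes start close to another gene that runs the opposite way. With starts within 1000 bases, 29 members had a measured partner that was not a member. The pairs' log2 ratios had a Pearson r of 0.41 when JC-P was set over JC-WT, 0.55 with JC-M3 over JC-P and 0.59 with JC-M3 over JC-WT, over 29 pairs that share chromosome and libraries. Over the 77 measured members, r with the median of the protein-coding genes within 5 Mb was 0.39, 0.70 and 0.74 in the same comparisons. Whether the pairing itself has a part in the pairs' r was not tested. In 1 case both partners were members, Mrpl46 of the central protuberance and Mrps11, a homologue of bacterial S11, on chromosome 7. Mrpl46 stood at 50.4 TPM in JC-M3, 45.0 in JC-P and 65.8 in JC-WT, and Mrps11 at 40.8, 34.9 and 49.2 TPM. Both were lowest in JC-P and highest in JC-WT, with log2 ratios of JC-P over JC-WT of -0.55 and -0.49. The gene models overlap on opposite strands, over 12.2% of the exon bases of Mrpl46, and the strand setting of the counting is not given in the sources used here, so reads in the overlap may not be told apart. The start of Mrps11 is shown because it lies in this shared region (chr7:78782881-78783180, plus strand), where the capitals mark the reverse complement of the YY1 core.
Mrps11: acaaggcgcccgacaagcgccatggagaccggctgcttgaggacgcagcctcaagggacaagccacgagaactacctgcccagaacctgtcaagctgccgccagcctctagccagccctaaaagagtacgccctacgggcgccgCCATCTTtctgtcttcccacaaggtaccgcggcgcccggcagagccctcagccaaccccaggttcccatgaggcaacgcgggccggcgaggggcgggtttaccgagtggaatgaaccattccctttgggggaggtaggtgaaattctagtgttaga

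Other genes of mitochondrial translation were compared as lists. Of all features, 49% were below 0 in JC-P over JC-WT, 49.7% below 0 in JC-M3 over JC-WT and 49.2% above 0 in JC-M3 over JC-P. The 5 mitochondrial ribosome proteins with other symbols, Dap3, Ptcd3, Chchd1, Aurkaip1 and Gadd45gip1, were all below 0 both in JC-P over JC-WT (median -0.19) and in JC-M3 over JC-WT (-0.18), and none was past 1.5-fold. The lowest in JC-P was Gadd45gip1, at 72.1 TPM in JC-M3, 53.9 in JC-P and 79.8 in JC-WT, a log2 ratio of JC-P over JC-WT of -0.56. Of the 25 measured assembly and rRNA modification factors, 21 were below 0 in JC-P over JC-WT, with a median of -0.34. Past 1.5-fold lower were 2, the GTPase Noa1, needed for small subunit assembly in mammals, at -0.87 and the rRNA methyltransferase Mrm2 at -0.59, a share of 8% that is near the 6.9% of all features. None was past 1.5-fold higher, against 12%. Of the 20 measured mitochondrial aminoacyl-tRNA synthetases, 17 were below 0 in JC-P over JC-WT (median -0.30), the lowest being the seryl-tRNA synthetase Sars2 with 8.18 TPM in JC-P, against 16.9 TPM in JC-WT, and 14 were above 0 in JC-M3 over JC-P (0.23).

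The 16 translation factors were mixed, with medians of -0.04 when JC-P was set over JC-WT, -0.12 with JC-M3 over JC-P and -0.08 with JC-M3 over JC-WT. Tufm, the elongation factor that carries aminoacyl-tRNA to the ribosome, stood at 201 TPM in JC-M3, 145 in JC-P and 195 in JC-WT, lowest in JC-P. Gfm2, a factor for recycling the ribosome that is encoded on chromosome 13, stood at 5.52 TPM in JC-M3, 12.9 in JC-P and 11.9 in JC-WT, low in JC-M3 alone, with a log2 ratio of JC-M3 over JC-WT of -1.04. Among the 16 measured regulators of mitochondrial transcription and biogenesis, the median was -0.09 for JC-P over JC-WT and -0.02 for JC-M3 over JC-WT. Tfam, which packages mitochondrial DNA, stood at 43.6, 31.6 and 27.04 TPM in JC-M3, JC-P and JC-WT, highest in JC-M3. Myc stood at 105, 82.7 and 123 TPM, lowest in JC-P. Ppargc1a had 3, 0 and 0 reads and was below the minimum. Ppargc1b stood at 2.92, 4.69 and 6.68 TPM in JC-M3, JC-P and JC-WT, a log2 ratio of JC-M3 over JC-WT of -1.07. That was the lowest of the 16 regulators, of which 7 were above 0 and 9 below, where 49.7% of all features were below 0.

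The rRNAs of the mitochondrial ribosome were lower in JC-M3 and JC-P than in JC-WT, and most of the mRNAs it translates were higher. Its small-subunit rRNA mt-Rnr1 stood at 342 TPM in JC-M3, 611 in JC-P and 839 in JC-WT, and its large-subunit rRNA mt-Rnr2 at 1166, 1126 and 1461 TPM. Both were highest in JC-WT, like most of the protein genes, but libraries of polyadenylated RNA do not measure rRNA levels in full. The 13 mitochondrially encoded protein genes were all above 0 in JC-P over JC-WT, with a median of 0.36, and 10 of 13 were above 0 in JC-M3 over JC-WT, with 0.22. Of all features, 50.9% and 50.1% were above 0 in these comparisons. The 80 measured cytosolic ribosomal protein genes had medians of -0.01 for JC-P over JC-WT and 0.11 for JC-M3 over JC-WT, so their median was above that of the mitochondrial ribosomal protein genes in both. No difference between the lists was tested.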

How the data were processed

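Polyadenylated RNA of 3 cultured JC populations was sequenced with a stranded kit, 1 library each, per the labels' protocols. The authors deposited TPM, a level per gene scaled by gene length and library size, per the file headers. STAR 2.7.9a, FastQC 0.11.9 and featureCounts are named, with the builds mm10 and GRCm38, per the submitters' processing notes. Neither annotation nor strand setting is given in the sources used here.

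Ratios are log2 of TPM + 0.5, which understates the differences of low genes, among the 14527 features that averaged 1 TPM or more. TPM times the length of the merged GENCODE M21 exons (GRCm38) gave whole reads within 0.01 for 98.5%, 98.5% and 98.4% of expressed genes in JC-M3, JC-P and JC-WT, and for all 77 measured members. Intervals are exact conditional Clopper-Pearson intervals of the plain TPM ratio at 95%, and they cover counting error only. With 1 library per group no test was run. Coordinates and chromosomes are those of GENCODE M21. Sequence shared with other genes was counted over 50-base windows of the transcripts, and 11 of the 78 members had over 20% of their windows in other genes.

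The members and lists were chosen with earlier results of these data known. The rule for named members took, in each comparison, the 6 lowest and 6 highest ratios, then the 5 highest and 5 lowest levels, all past 2-fold and the members of 4 structural groups. Of the 2 highest and 2 lowest ratios of each pathway list, those needed to describe the list are printed. Mrps18a, Mrps18b, Mrps11, Slc5a3, Ptcd2, Tfam and Myc were named after their values were seen. Of the listed pathway genes, Gars, Kars, Qars, Mterfd1 and Wbscr16 were not matched by symbol. The scripts were tested on simulated data. Tools were matplotlib 3.10.9, scipy 1.17.1, pandas 2.3.3 and numpy 2.4.6 in Python 3.11.15.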

Additional observations from a re-analysis of the deposited data

How the results depend on the processing

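Each median, each count past 1.5-fold and each difference between subunits was recomputed with pseudocounts of 0.1 and 2, without an expression minimum and with one of 10 TPM, with median-of-ratios scaling, without mitochondrially encoded transcripts, without members of shared sequence and with chromosome medians subtracted. Subtracting medians within 5 Mb was added after seeing the data. Of 81 such values, 5 counts past 1.5-fold moved by more than 1.5 times. With chromosome medians subtracted, the count was 1 in JC-M3 over JC-P, against 3 as measured, and 3 in JC-M3 over JC-WT, against 7. With medians within 5 Mb subtracted, it was 0 in JC-P over JC-WT, against 4 as measured, 0 in JC-M3 over JC-P and 4 in JC-M3 over JC-WT. The cause was not tested. The median ratio of JC-P over JC-WT ranged from -0.21 to -0.15, that of JC-M3 over JC-P from 0.05 to 0.10 and that of JC-M3 over JC-WT from -0.20 to -0.08. The difference between subunits in JC-M3 over JC-P, 0.00 as measured, ranged from -0.07 to 0.03, that in JC-P over JC-WT from 0.02 to 0.08 and that in JC-M3 over JC-WT from 0.06 to 0.11. With chromosome medians subtracted, 35 of 126 ratios of named genes moved at least as far as their counting interval reaches to either side. None past 1.5-fold changed sign with another pseudocount or scaling or with chromosome medians subtracted. No paired analysis was possible because each group has 1 library. The lack of replicates, and counting intervals that cover reads alone, limit every ratio.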
